A study of Mus musculus with 6 samples.

Results

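The enzymes, transporters and regulators of central carbon metabolism were followed in mouse CD4+ T cells with a conditional deletion of Satb1. The group consists of 39 named genes of 55401 in the count tables, taken by symbol and divided by role: 4 carriers of glucose and lactate, 16 glycolytic genes including both lactate dehydrogenases, 6 hypoxia genes, 5 enzymes of the pentose phosphate pathway and 8 of the TCA cycle. The knockout libraries (CKO, n = 3) came from Satb1 flox/flox CD4-Cre mice, in which Cre under Cd4 regulatory sequences removes loxP-flanked Satb1 from developing T cells onward. The control libraries (CON, n = 3) came from control mice, labelled WT. All 6 were splenic T cells enriched as naive CD4+ cells on magnetic beads and activated for 24 h through CD3 and CD28. The sources used here do not say whether the controls carried Cre, nor give the age, sex or strain of the mice. They also do not tie each library to its own mouse, and p-values therefore reflect the spread among these libraries alone, which may be technical.

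A T cell that is activated takes up more glucose and converts much of it to lactate even when oxygen is present, and glycolysis, the pentose phosphate pathway and the TCA cycle are then all drawn on for growth. Glycolysis splits glucose into pyruvate. Pyruvate is either reduced to lactate and exported or enters mitochondria, where the TCA cycle oxidises it, while the pentose phosphate pathway diverts glucose 6-phosphate to NADPH and ribose. Many glycolytic genes are targets of HIF-1, a factor whose alpha subunit (Hif1a) is hydroxylated by EGLN enzymes and then degraded while oxygen is present, and of MYC, which is induced on activation.

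Reads counted on genes ranged from 16621609 to 19023023 in CKO libraries and from 14895389 to 20266626 in CON libraries. Satb1 itself (chromosome 17, 51736187 to 51833290, GRCm38) stood at 426, 546 and 462 CPM (counts scaled to library size) in CKO libraries, against 712, 851 and 727 CPM in CON libraries. CKO libraries were thus all below CON libraries (log2 fold change -0.68, SE 0.087, edgeR adjusted p = 9.7e-05), but reads of the whole gene can include exons that Cre leaves in place. Reads of single exons were not examined, and how complete the deletion was in these libraries was not tested. T cell markers were present in every library, with Cd3d, a chain of the T cell receptor complex, at 134 to 144 CPM in CKO libraries and 158 to 168 CPM in CON libraries. Cd4, the co-receptor in the cells' label, was far lower in the knockout, at 204 to 212 CPM in CKO libraries and 681 to 721 CPM in CON libraries; Cd3d and Cd4 are given after their values were seen, as defining markers of the label. Of the 10 T cell markers, 7 were called lower and 1 higher, and their sum was 2495 to 2582 CPM in CKO libraries and 3355 to 3447 CPM in CON libraries. RNA of other cells was also higher in CKO libraries: the 11 red cell markers found in the tables summed to 312 to 1866 CPM, against 28.7 to 36.8 CPM in CON libraries, and the 15 myeloid markers to 88.2 to 196 CPM, against 22.3 to 27.5 CPM, with no marker of either list at 0 in a whole group. Of the 8 red cell markers tested, 7 were called higher and 1 lower (log2 fold change -0.93). In bulk RNA, fewer cells of a type and less RNA per cell cannot be told apart, and the part of other cells in the results below was not tested.

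Transcripts of the glycolytic route and of hypoxia targets were mostly lower in CKO libraries, while 1 or 2 genes of every branch except transport were higher. All 39 members passed the filter on low counts. Of these, 21 were called lower and 6 higher at an edgeR adjusted p under 0.05, and 12 were not called. Over all 13364 genes tested, 42.3% were called, 20.7% lower and 21.6% higher. The members were thus called lower in a larger share than all genes and higher in a smaller one. The background was not matched for expression level, and small changes of abundant members were called. Examples are Tkt (log2 fold change -0.10) and Mdh2 (0.15), where 26.4% and 36.6% of tested genes changed less. CKO libraries lay entirely below CON libraries for 22 members and entirely above for 7, where 26.5% and 27.0% of all tested genes did so. The median log2 fold change was -0.12 over the members and 0.0034 over all tested genes. Measured as TPM (reads per length of exon, scaled to the same sum in every library), the 39 genes together made up 1.11%, 1.12% and 1.12% of CKO libraries and 1.29%, 1.36% and 1.36% of CON libraries.

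**Figure D1:**
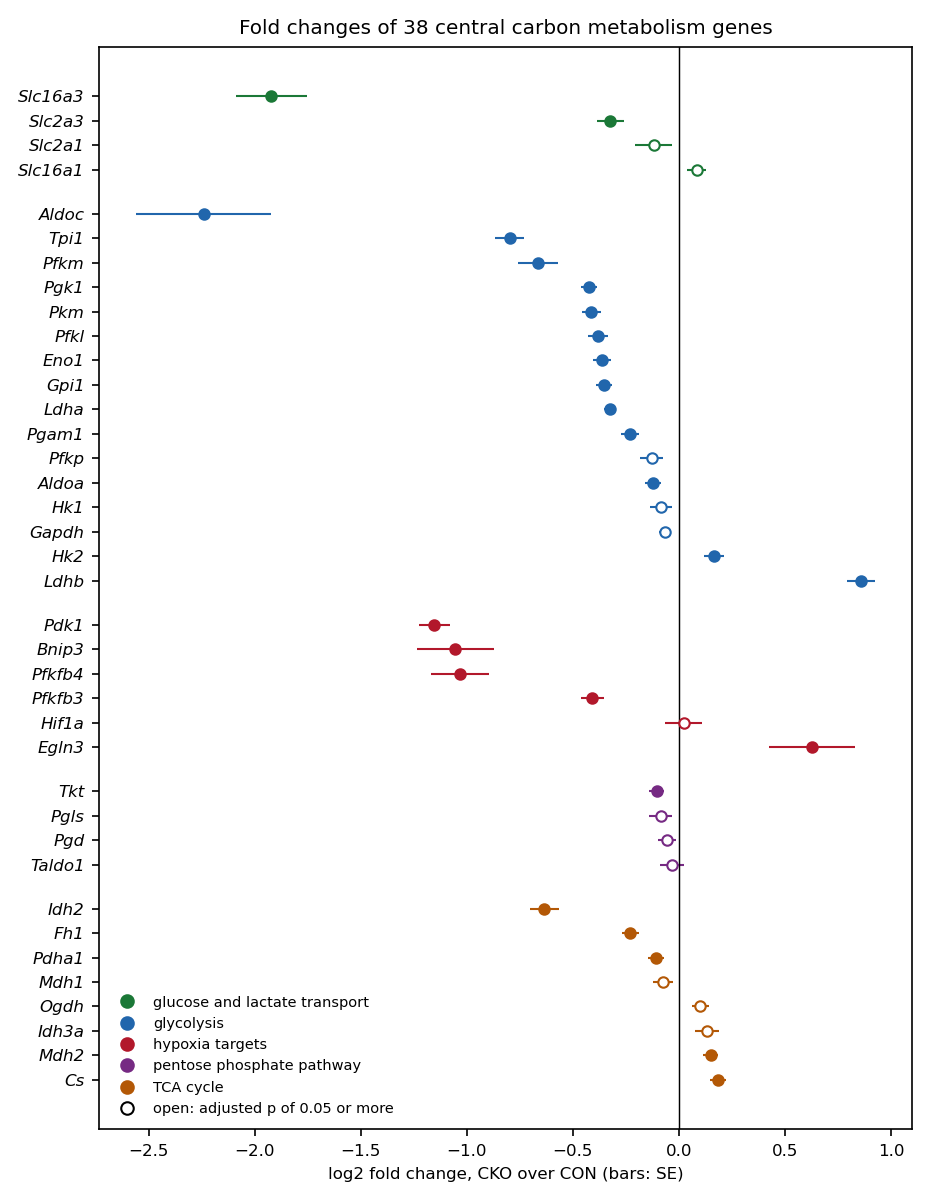
Log2 fold change (CKO over CON, horizontal axis) of 38 of the genes by branch, with SE bars; filled points had an edgeR adjusted p under 0.05. Most filled points of glycolysis and the hypoxia targets lie left of 0, with Ldhb (0.86) and Egln3 (0.63) farthest to the right.

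Carriers that bring glucose in or take lactate out were lower or not called. Of the 4 genes, 2 fell and 0 rose, beside 20.7% and 21.6% of all tested genes, and the branch median was -0.22. Slc16a3 encodes MCT4, the proton-linked carrier by which highly glycolytic cells export lactate, and lies on chromosome 11 (120948480 to 120960868, GRCm38). It had 7.51, 8.35 and 9.54 CPM in CKO libraries, against 23.8, 37.4 and 35.4 CPM in CON libraries. No CKO library came near the lowest control. Its log2 fold change (CKO over CON, here and below) was -1.92 (SE 0.17, edgeR adjusted p = 5.07e-06). Slc2a3, encoding the glucose carrier GLUT3, stood at 35.9, 34.6 and 35.7 CPM in CKO libraries and 43.0, 47.7 and 42.3 CPM in CON libraries (log2 fold change -0.32, SE 0.062, edgeR adjusted p = 0.00156).

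The more abundant carriers of both kinds were not called. Slc2a1, encoding GLUT1, the main glucose carrier of activated T cells, had 70.4, 79.6 and 75.7 CPM in CKO libraries and 70.3, 92.7 and 82.9 CPM in CON libraries, and the groups overlapped (edgeR adjusted p = 0.296). Without CON replicate 1, its lowest control, Slc2a1 passed the test as lower (log2 fold change -0.23, edgeR adjusted p = 0.00784). Slc16a1, encoding the lactate carrier MCT1, stood at 245, 232 and 246 CPM in CKO libraries and 237, 221 and 224 CPM in CON libraries (edgeR adjusted p = 0.149). Per length, Slc16a3 made up 2.84 ± 0.326% of the Slc16a1 and Slc16a3 transcripts in CKO libraries and 10.6 ± 2.48% in CON libraries (SD, n = 3 each).

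Along glycolysis the falls reached 11 of 16 genes and 2 rose, beside 20.7% and 21.6% of all tested genes. The branch median log2 fold change was -0.34. From the isomerase step to pyruvate kinase, each enzyme whose transcripts fell was reduced by less than a factor of 2 except the rare Aldoc. Tpi1, encoding triose-phosphate isomerase, which interconverts the 3-carbon products of aldolase, fell most among the abundant genes (chromosome 6, 124810586 to 124814296). Tpi1 had 317, 324 and 311 CPM in CKO libraries, against 482, 594 and 581 CPM in CON libraries. CKO libraries were close together and all far below CON libraries (log2 fold change -0.80, SE 0.067, edgeR adjusted p = 4.11e-06).

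The upper steps, in which glucose is trapped and split, did not all move alike. Hexokinase, the first enzyme, is represented among the 39 genes by Hk1 and Hk2. Hk2, the inducible form, had 205, 191 and 187 CPM in CKO libraries, against 168, 179 and 173 CPM in CON libraries, and rose slightly (log2 fold change 0.17, SE 0.047, edgeR adjusted p = 0.0142). Hk1 averaged 172 ± 2.3 CPM in CKO libraries and 182 ± 12.5 CPM in CON libraries and was not called (SD, n = 3 each; edgeR adjusted p = 0.221). The Hk2 call was lost without CKO replicate 1 (edgeR adjusted p = 0.0566) or CON replicate 3 (edgeR adjusted p = 0.0518). Gpi1, encoding the isomerase that makes fructose 6-phosphate, fell to 483 ± 3.86 CPM in CKO libraries, against 617 ± 27.4 CPM in CON libraries (log2 fold change -0.35, SE 0.039).

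Phosphofructokinase, the committing step, has 3 subunit genes, of which the liver type and the muscle type fell. Pfkl stood at 180, 192 and 180 CPM in CKO libraries and 228, 243 and 248 CPM in CON libraries (log2 fold change -0.38, SE 0.047). Pfkm, the least abundant of the 3, stood at 10.9, 12.5 and 12.7 CPM in CKO libraries and 17.9, 19.9 and 19.4 CPM in CON libraries (log2 fold change -0.67, SE 0.094). For both genes the groups were clearly apart. Pfkp, the platelet type, overlapped between groups at 339, 342 and 347 CPM in CKO libraries and 339, 386 and 399 CPM in CON libraries (edgeR adjusted p = 0.0826), and it was called lower without CON replicate 1 (log2 fold change -0.21, edgeR adjusted p = 0.000524). Aldolase transcripts came almost wholly from Aldoa, with 709 ± 17.9 CPM in CKO libraries and 772 ± 31.5 CPM in CON libraries (log2 fold change -0.12, SE 0.039, edgeR adjusted p = 0.0244). Its call was lost without CKO replicate 1, CON replicate 2 or CON replicate 3 (edgeR adjusted p = 0.0764, 0.0628 and 0.106). Aldoc, the brain-type aldolase, was rare at 0.767 ± 0.362 CPM in CKO libraries and 3.70 ± 0.781 CPM in CON libraries. It was called lower in CKO libraries (log2 fold change -2.24, SE 0.32, edgeR adjusted p = 0.000207). Aldoc passed the low-count filter through its control reads, so this call, counted among the falls of the branch, is not independent of the filter.

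In the later steps of the pathway, where ATP and pyruvate are made, 4 of 5 enzyme genes fell. Pgk1, encoding the first ATP-yielding kinase, had 689, 694 and 662 CPM in CKO libraries, against 874, 946 and 929 CPM in CON libraries (log2 fold change -0.43, SE 0.039, edgeR adjusted p = 7.32e-06). Eno1, encoding enolase, fell to 1235, 1286 and 1212 CPM in CKO libraries, against 1492, 1656 and 1650 CPM in CON libraries (log2 fold change -0.36, SE 0.043). Pkm, encoding pyruvate kinase, fell to 1202, 1094 and 1071 CPM in CKO libraries, against 1440, 1551 and 1492 CPM in CON libraries (log2 fold change -0.41, SE 0.045). For all 3 genes every CKO library lay below every CON library. Pgam1, encoding phosphoglycerate mutase, fell less (log2 fold change -0.23, SE 0.041, edgeR adjusted p = 0.000964). Gapdh, often used as a reference transcript, averaged 2448 ± 58.7 CPM in CKO libraries and 2566 ± 22.5 CPM in CON libraries (SD, n = 3 each; log2 fold change -0.07, SE 0.027, edgeR adjusted p = 0.0678). The Gapdh groups did not overlap, and it passed the threshold as lower in 5 of the 14 other settings, with edgeR adjusted p-values from 0.0390 to 0.0481.

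Read as a route, transcript levels were below control at most steps. Summed over isozymes, the TPM in CKO libraries relative to CON libraries was 102% for hexokinase, 76.6% for glucose-6-phosphate isomerase, 79.8% for phosphofructokinase, 89.6% for aldolase and 56.3% for triose-phosphate isomerase. It was 93.4% for GAPDH, 72.9% for phosphoglycerate kinase, 83.3% for phosphoglycerate mutase, 76.2% for enolase, 73.5% for pyruvate kinase and 81.7% for lactate dehydrogenase. TPM and CPM are scaled differently, and by CPM the ratio was 95.4% for Gapdh and 57.5% for Tpi1. Glucose uptake (Slc2a1 and Slc2a3, 87.5%) and hexokinase were the steps at which the groups overlapped. The most abundant members by TPM were Gapdh (1974, 2049 and 2054 TPM in CKO libraries and 2164, 2147 and 2196 TPM in CON libraries) and Ldha (1738 ± 23.5 TPM in CKO libraries and 2225 ± 39.8 TPM in CON libraries), followed by Pgk1, and their order differed at the top, where Gapdh led in CKO libraries and Ldha in CON libraries.

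**Figure D2:**
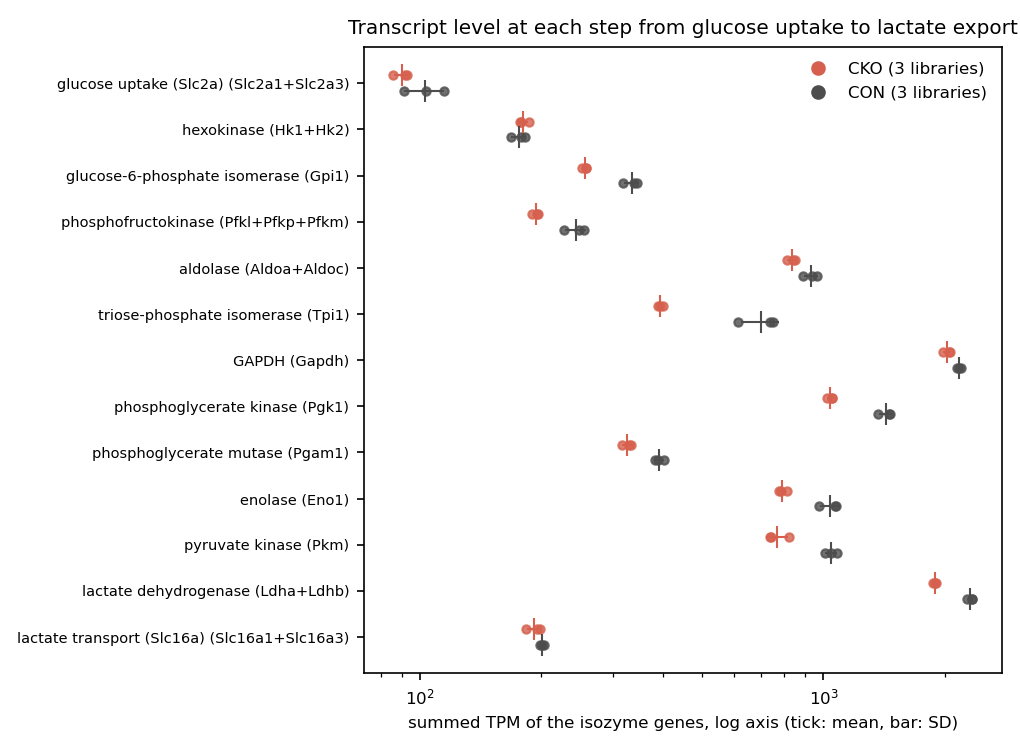
Summed TPM (log axis) of the isozyme genes at each step from glucose uptake to lactate export, CKO above CON; points are libraries, ticks means and bars SD. The groups are farthest apart at triose-phosphate isomerase (394 TPM in CKO libraries, 701 TPM in CON libraries) and overlap at glucose uptake and hexokinase.

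The lactate dehydrogenase genes moved in opposite directions. Ldha encodes the muscle-type subunit, which favours making lactate, and Ldhb the heart-type subunit, which is tied to using it. Ldha (chromosome 7, 46841475 to 46855627) had 1705, 1693 and 1647 CPM in CKO libraries, against 2057, 2145 and 2121 CPM in CON libraries (log2 fold change -0.33, SE 0.029, edgeR adjusted p = 6.81e-06). Ldhb (chromosome 6, 142490249 to 142507957) had 62.8, 74.3 and 69.4 CPM in CKO libraries, against 38.6, 36.4 and 38.7 CPM in CON libraries. The lowest CKO library was well above the highest control, and the fold change was 1.81 (log2 0.86, SE 0.067, edgeR adjusted p = 2.38e-06). Ldha still supplied most of the transcripts: per length, Ldhb made up 7.94 ± 0.658% of the pair in CKO libraries and 3.66 ± 0.183% in CON libraries (SD, n = 3 each).

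Within-library ratios of isozymes, which do not depend on how libraries are scaled, were compared for 9 pairs. In every pair the CKO and CON libraries did not overlap, so that the two-sided exact permutation test gave p = 0.10 for each, the smallest it can give with 3 against 3 libraries, also after Benjamini-Hochberg adjustment over the 9 pairs. The design cannot reach 0.05 here. The log2 ratio of Ldha to Ldhb differed by -1.18 (mean 3.54 ± 0.132 in CKO libraries and 4.72 ± 0.0759 in CON libraries), and that of Slc16a3 to Slc16a1 by -1.99 (-5.10 ± 0.174 in CKO libraries and -3.11 ± 0.407 in CON libraries). Smaller differences of 0.25 for Hk2 to Hk1, 0.26 for Pfkp to Pfkl and 0.23 for Mdh2 to Mdh1 went up in CKO libraries. Those of Pfkm to Pfkl (-0.29), Slc2a3 to Slc2a1 (-0.21), Pfkfb4 to Pfkfb3 (-0.62) and Aldoc to Aldoa (-2.24) went down. When 1 library was left out, the difference for Slc2a3 to Slc2a1 lay between -0.26 (without CKO replicate 1) and -0.12 (without CON replicate 1), with exact permutation p up to 0.40.

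**Figure D3:**
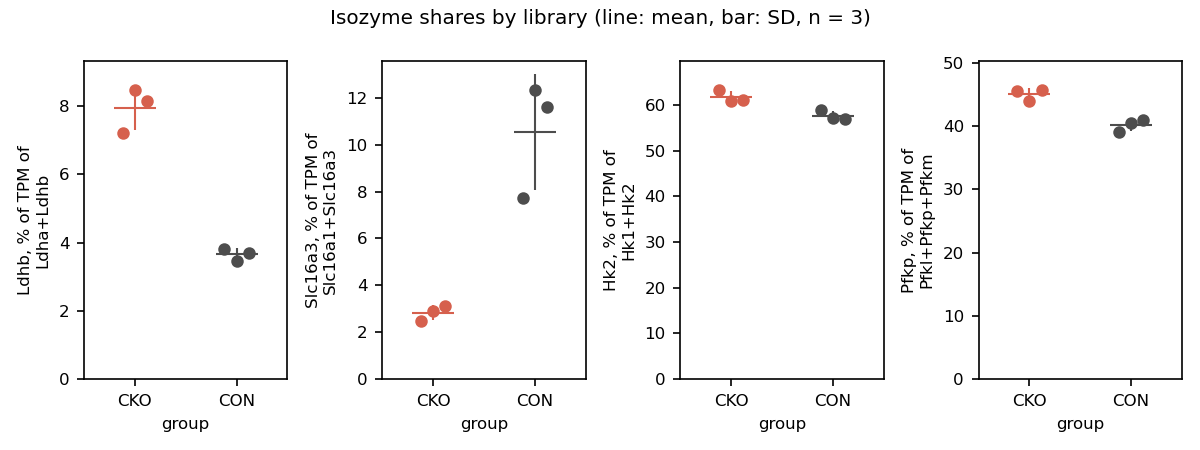
Share of one isozyme in the summed TPM of its family (vertical axes, %) for Ldhb, Slc16a3, Hk2 and Pfkp, with CKO left of CON; points are libraries, lines means and bars SD (n = 3). Ldhb takes 7.94% in CKO libraries and 3.66% in CON libraries, and Slc16a3 2.84% in CKO libraries and 10.6% in CON libraries.

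Among the hypoxia genes, 4 of 6 fell and 1 rose, beside 20.7% and 21.6% of all tested genes. The median log2 fold change of the branch, -0.72, was the lowest of the 5 branches. Pdk1 encodes a kinase that inactivates pyruvate dehydrogenase and so keeps pyruvate out of mitochondria (chromosome 2, 71873224 to 71903858). Pdk1 had 76.7, 82.6 and 72.8 CPM in CKO libraries, against 152, 185 and 180 CPM in CON libraries. Every CKO library was well under the lowest control (log2 fold change -1.15, SE 0.073, edgeR adjusted p = 4.76e-07), the smallest p of the 39 genes. Bnip3, encoding a mitophagy receptor induced by hypoxia, was rare, with 2.31, 3.32 and 3.50 CPM in CKO libraries and 5.76, 6.51 and 6.68 CPM in CON libraries (log2 fold change -1.05, SE 0.18, edgeR adjusted p = 0.000772).

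Pfkfb3 and Pfkfb4 encode bifunctional enzymes that set fructose 2,6-bisphosphate, the activator of phosphofructokinase, and both fell. Their relatives Pfkfb1 and Pfkfb2, of the list of further genes and named after their values were seen, were not called (edgeR adjusted p = 0.207 and 0.238). Both were rare, and their log2 fold changes of -0.34 (SE 0.20) and -0.28 (SE 0.18) had the same sign. Pfkfb4 stood at 4.36, 3.95 and 4.16 CPM in CKO libraries and 8.66, 7.72 and 9.14 CPM in CON libraries (log2 fold change -1.03, SE 0.14, edgeR adjusted p = 0.000119). Pfkfb3, the more abundant of the pair, stood at 63.6, 61.7 and 69.9 CPM in CKO libraries and 85.8, 88.5 and 84.8 CPM in CON libraries (log2 fold change -0.41, SE 0.054, edgeR adjusted p = 0.000125). Neither Pfkfb3 nor Pfkfb4 had overlapping groups.

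The transcript of the regulator itself was not called. Hif1a had 307, 401 and 362 CPM in CKO libraries and 319, 375 and 360 CPM in CON libraries, with wide overlap (log2 fold change 0.02, SE 0.086, edgeR adjusted p = 0.852). HIF-1 alpha is controlled largely at the protein level, which was not measured. Egln3, a HIF target that encodes one of the oxygen-sensing hydroxylases, rose, unlike the 4 genes of its branch that fell, with 27.4, 26.4 and 26.0 CPM in CKO libraries and 10.5, 23.4 and 18.5 CPM in CON libraries. CKO libraries were tight and just above the highest control, and the controls were spread (log2 fold change 0.63, SE 0.20, edgeR adjusted p = 0.0278). The Egln3 log2 fold change was 0.33 without CON replicate 1, and its call was lost without CKO replicate 1, 2 or 3 or CON replicate 3 (edgeR adjusted p from 0.0569 to 0.0738) and by DESeq2 (adjusted p = 0.144).

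Start-site sequences are shown for the members with the largest called change in transport (Slc16a3) and among the hypoxia genes (Pdk1), and for the isozyme pair called in opposite directions (Ldha and Ldhb). Each line gives the 250 bases before a RefSeq start site, 5′ to 3′ on the gene's strand, on GRCm38.p6. The table lists 2 start sites each for Ldha and Pdk1, and the one with the most annotated transcript starts within 100 bases was used. The windows of Ldha and Slc16a3 lie inside the gene spans given above, which begin at other annotated starts further upstream. Of the Slc16a3 window, 14 bases are annotated as exon. The windows of Aldoc and Idh2, with the largest called changes of glycolysis and the TCA cycle, hold 136 and 42 such bases and are not printed. Slc16a3 is at chr11:120948817-120949066 (plus strand), Pdk1 at chr2:71872974-71873223 (plus), Ldha at chr7:46845554-46845803 (plus) and Ldhb at chr6:142507958-142508207 (minus). Capitals mark each match, on either strand, to the core of the hypoxia response element, ACGTG or GCGTG.
Slc16a3: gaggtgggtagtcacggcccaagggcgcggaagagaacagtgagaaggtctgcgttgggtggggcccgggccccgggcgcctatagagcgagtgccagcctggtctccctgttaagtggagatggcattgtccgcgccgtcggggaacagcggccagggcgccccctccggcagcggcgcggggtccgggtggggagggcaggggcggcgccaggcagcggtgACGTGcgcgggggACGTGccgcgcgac
Pdk1: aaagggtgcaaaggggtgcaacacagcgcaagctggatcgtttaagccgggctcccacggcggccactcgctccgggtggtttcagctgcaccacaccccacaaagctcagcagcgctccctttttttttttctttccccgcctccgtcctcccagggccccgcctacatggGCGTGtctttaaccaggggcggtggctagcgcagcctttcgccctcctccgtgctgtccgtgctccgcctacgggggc
Ldha: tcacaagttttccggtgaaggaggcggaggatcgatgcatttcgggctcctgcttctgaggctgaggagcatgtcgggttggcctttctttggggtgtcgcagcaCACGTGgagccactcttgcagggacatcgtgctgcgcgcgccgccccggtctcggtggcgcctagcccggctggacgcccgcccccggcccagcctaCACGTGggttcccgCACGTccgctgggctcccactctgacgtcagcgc
Ldhb: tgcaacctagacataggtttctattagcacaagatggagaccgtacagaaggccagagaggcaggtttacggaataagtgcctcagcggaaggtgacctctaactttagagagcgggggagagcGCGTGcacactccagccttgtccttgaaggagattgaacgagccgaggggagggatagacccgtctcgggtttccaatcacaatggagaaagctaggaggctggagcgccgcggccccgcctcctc

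The 3 genes that fell hold 2, 1 and 5 matches (Slc16a3, Pdk1 and Ldha), and Ldhb, which rose, holds 1. The capital runs CACGTG in Ldha are E-boxes, the motif bound by MYC and its partners, each of which counts as 2 overlapping core matches because it reads the same on both strands. The short core is common: it was found in 57.9% of the 9410 promoters of tested genes matched by symbol and in 38.7% of all 27025 promoters. Slc2a3 and Idh3a have no entry in the promoter table. Of the 37 members with one, 32 held it, 17 of 20 among those called lower, 5 of 6 among those called higher and 10 of 11 among those not called. The share was thus about the same whichever way a member went. An E-box was found in 6 of the 37 and in 8.48% of the promoters of tested genes.

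In the pentose phosphate pathway, 3 of 5 genes were not called, and the median log2 fold change was -0.06. Of the 5, 1 was called lower and 1 higher, beside 20.7% and 21.6% of all tested genes. The 4 genes described here stayed within 10% of control. Tkt, encoding transketolase of the non-oxidative arm, had 418, 425 and 435 CPM in CKO libraries and 463, 449 and 462 CPM in CON libraries (log2 fold change -0.10, SE 0.035, edgeR adjusted p = 0.0346). That small fall lost its call without CKO replicate 1 or 2 or CON replicate 3 (edgeR adjusted p = 0.0904, 0.0698 and 0.102). Pgls, encoding the lactonase of the oxidative arm, averaged 62.4 ± 3.63 CPM in CKO libraries and 66.2 ± 2.18 CPM in CON libraries, and Pgd, encoding an NADPH-yielding enzyme of the same arm, 169 ± 7.11 CPM in CKO libraries and 175 ± 3.91 CPM in CON libraries (SD, n = 3 each). Taldo1, encoding transaldolase, averaged 124 ± 6.45 CPM in CKO libraries and 127 ± 7.27 CPM in CON libraries. These 3 were not called (edgeR adjusted p = 0.235, 0.337 and 0.662), and their groups overlapped.

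The TCA cycle genes went both ways, with 3 of 8 lower, 2 higher and a median log2 fold change of 0.01. For comparison, 20.7% of all tested genes were called lower and 21.6% higher. Idh2, encoding the NADP-dependent mitochondrial isocitrate dehydrogenase, had the largest change, with 42.3, 47.3 and 43.5 CPM in CKO libraries against 63.8, 68.3 and 74.9 CPM in CON libraries (log2 fold change -0.64, SE 0.068, edgeR adjusted p = 2.69e-05). Fh1, encoding fumarase, fell to 85.5 ± 1.56 CPM in CKO libraries, against 100.2 ± 1.21 CPM in CON libraries (log2 fold change -0.23, SE 0.041, edgeR adjusted p = 0.00105). CKO libraries of both genes were all below CON libraries. Pdha1, encoding the catalytic subunit of pyruvate dehydrogenase that PDK1 phosphorylates, had 151, 149 and 149 CPM in CKO libraries and 161, 163 and 160 CPM in CON libraries (log2 fold change -0.11, SE 0.038, edgeR adjusted p = 0.0368). The Pdha1 call was lost when CKO replicate 1, 2 or 3 or CON replicate 2 or 3 was left out, with no filter on low counts, and by DESeq2 (adjusted p from 0.0601 to 0.0968 in these 7 settings).

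Enzymes on either side of the cycle's entry rose slightly. Cs, encoding citrate synthase, had 342, 339 and 343 CPM in CKO libraries, against 294, 309 and 298 CPM in CON libraries (log2 fold change 0.18, SE 0.037, edgeR adjusted p = 0.00201). Mdh2, encoding mitochondrial malate dehydrogenase, which supplies its oxaloacetate, had 325, 315 and 315 CPM in CKO libraries, against 293, 285 and 283 CPM in CON libraries (log2 fold change 0.15, SE 0.037, edgeR adjusted p = 0.00758). In both, every CKO library exceeded every CON library. Mdh1, the cytosolic malate dehydrogenase, Idh3a, a subunit of the NAD-dependent isocitrate dehydrogenase, and Ogdh, of the oxoglutarate dehydrogenase complex, were not called, with log2 fold changes of -0.08, 0.13 and 0.10 (edgeR adjusted p = 0.236, 0.0815 and 0.0522). Ogdh, whose groups did not overlap, passed as higher with a filter of at least 1 CPM in 3 libraries (edgeR adjusted p = 0.0474).

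**Figure D4:**
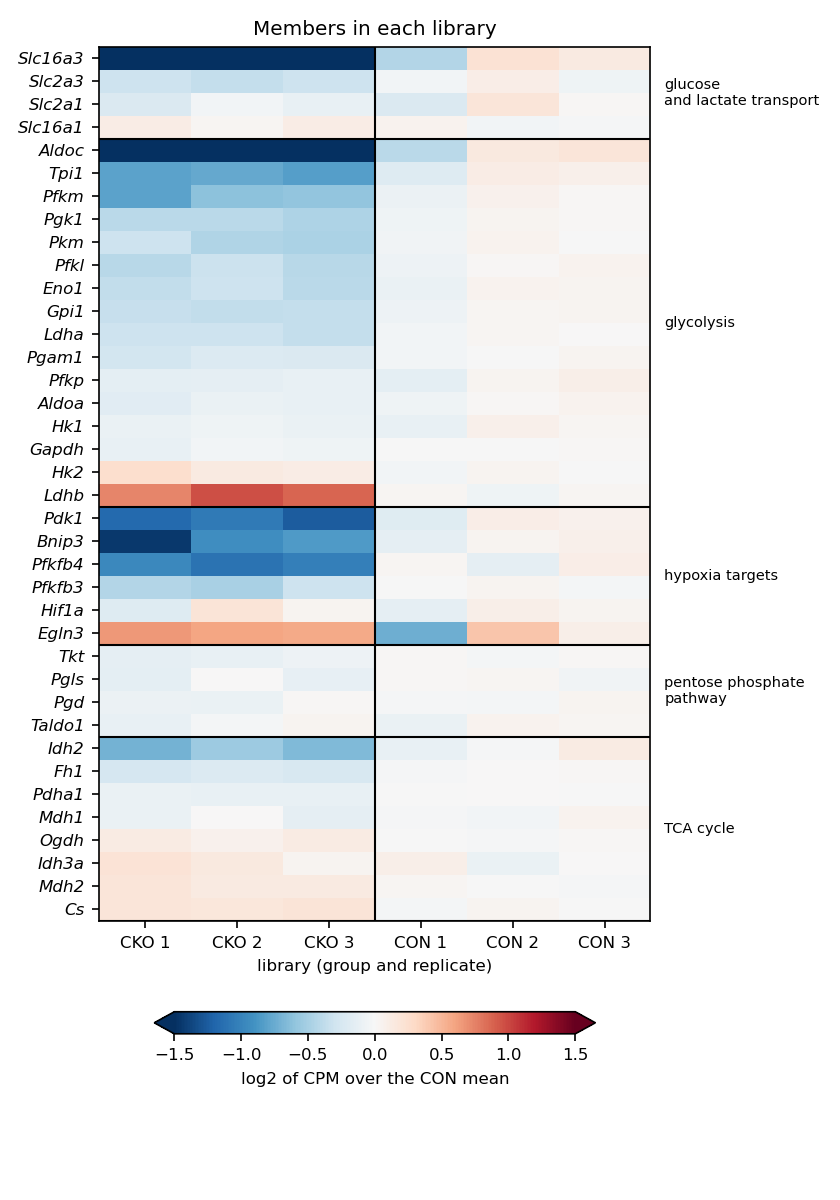
Log2 of each library's CPM over the CON mean (colour, blue lower and red higher, values beyond 1.5 shown at the end of the scale) for 38 of the genes in 3 CKO libraries (left) and 3 CON libraries (right). The 3 CKO columns look alike in glycolysis and the hypoxia targets, and CON replicate 1 is pale blue for most of the genes that fell (16 of 21 have their lowest control there, as do 26 of all 39 members).

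Libraries of a group resembled each other, with one shift among the controls. The median coefficient of variation over the 39 genes was 3.74% in CKO libraries and 4.11% in CON libraries. CON replicate 1 was the lowest control for 26 of all 39 members. These included 16 of the 21 genes that fell, among them Slc16a3, Tpi1 and Pdk1, where it lay on the side of the CKO libraries. It was also the lowest control for Hk2, Egln3 and Cs, which rose, and there it lay on the side away from them. Without it, all 27 called members remained called, and Slc2a1, Hk1, Pfkp, Gapdh (lower) and Idh3a (higher) were called as well. Within the CKO group, red cell markers summed to 312, 1866 and 1616 CPM and myeloid markers to 146, 88.2 and 196 CPM. Their part in the members' values was not tested. All 27 calls were kept when red cell, immunoglobulin, T cell receptor and mitochondrially encoded genes were left out of the counts, which changes only the genes tested and the library scaling.

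Further genes of these pathways, listed without the 39, were called lower more often than higher among hypoxia genes, and calls went both ways in the other lists. Of 28 tested other hypoxia genes, 14 were called lower and 3 higher (5 without CKO replicate 1), beside 20.7% and 21.6% of all tested genes. Their median log2 fold change was -0.24. Some passed the low-count filter through 1 group, such as P4ha2, Epas1 and Adm, named after their values were seen. Such calls are not independent of the filter. P4ha2 (4, 1 and 3 reads in CKO libraries, 26, 17 and 12 in CON libraries) and Epas1 were called lower. Adm (42, 42 and 26 reads in CKO libraries, 9, 7 and 7 in CON libraries) was called higher. Fam162a, a hypoxia-induced mitochondrial protein gene, fell to 54.3 ± 2.83 CPM in CKO libraries, against 77.1 ± 1.26 CPM in CON libraries. Narf fell to 22.4 ± 1.70 CPM in CKO libraries, against 36.2 ± 1.27 CPM in CON libraries (SD, n = 3 each). Plin2, encoding a lipid droplet coat protein, and Anxa2, an annexin, rose with log2 fold changes of 1.97 (SE 0.17) and 1.05 (SE 0.10).

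Of 20 tested other glycolytic genes, 7 were higher and 3 lower, with a median of -0.02, beside 21.6% higher and 20.7% lower over all tested genes. CKO libraries lay entirely above CON libraries for 7 of them and entirely below for 6, where 27.0% and 26.5% of all tested genes did so. Eno3, the muscle enolase, and the phosphoglucomutase gene Pgm1 fell (log2 fold change -0.75, SE 0.080, and -0.63, SE 0.055), as did Ldhd, encoding a D-lactate dehydrogenase (-1.15, SE 0.16). Galm, encoding aldose mutarotase, rose (1.17, SE 0.12). Hk3, known from myeloid cells, and Bpgm, known from red cells, are named after their values were seen. Hk3 had 8.35, 3.32 and 8.63 CPM in CKO libraries and 0.935, 1.95 and 2.01 CPM in CON libraries, with its lowest CKO value in the library lowest in myeloid markers. Bpgm had 26.8, 57.4 and 47.1 CPM in CKO libraries, in the order of their red cell sums given above. In CON libraries it had 27.3, 22.0 and 25.3 CPM, the reverse of the order of their red cell sums (28.7, 36.8 and 31.6 CPM). The Bpgm groups overlapped. The part of these cells in either rise was not tested.

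Of 9 tested other transport genes, 3 rose and 1 fell (median 0.12), beside 21.6% higher and 20.7% lower over all tested genes. Bsg, encoding basigin, the chaperone of MCT1 and MCT4, rose to 354 ± 13.1 CPM in CKO libraries, against 228 ± 4.87 CPM in CON libraries (log2 fold change 0.64, SE 0.041, edgeR adjusted p = 5.74e-07), opposite to Slc16a3. Slc2a6, encoding the glucose carrier family protein GLUT6, rose to 11.7 ± 1.03 CPM in CKO libraries, against 4.40 ± 0.939 CPM in CON libraries. Arrdc4 rose to 4.37 ± 0.471 CPM in CKO libraries, against 1.93 ± 0.652 CPM in CON libraries, and its relative Txnip, encoding an arrestin-like protein that limits glucose uptake, fell (-0.23, SE 0.072, edgeR adjusted p = 0.0231). The Txnip groups overlapped, and 0 other transport genes were called lower without CON replicate 2 or CON replicate 3.

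Other pentose phosphate genes were called lower in 3 of 11 and higher in 2 (1 without CKO replicate 1 or 2 or CON replicate 2 or 3; median -0.12), with Prps2, encoding a phosphoribosyl pyrophosphate synthetase, lower (log2 fold change -0.41, SE 0.046) and Rpia, encoding ribose-5-phosphate isomerase, higher (0.38, SE 0.052). H6pd and Shpk fell (-0.33 and -0.52). Other pyruvate and TCA genes were called lower in 9 of 32 and higher in 7 (median -0.04), and the 9 became 5 without CKO replicate 3 or CON replicate 2. The counts of both lists stand beside 20.7% lower and 21.6% higher over all tested genes. Dlat, encoding a subunit of pyruvate dehydrogenase, rose (log2 fold change 0.26, SE 0.045). Slc25a1, encoding the mitochondrial citrate carrier, and Sdha, of succinate dehydrogenase, fell (-0.29, SE 0.055, and -0.18, SE 0.035).

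Among 17 tested regulators of T cell metabolism, 7 rose and 3 fell (median 0.05), beside 21.6% higher and 20.7% lower over all tested genes. Myc had 645, 627 and 624 CPM in CKO libraries, against 523, 442 and 475 CPM in CON libraries (log2 fold change 0.40, SE 0.053, edgeR adjusted p = 0.000137). Its dimer partner Max fell (-0.31, SE 0.058). Slc7a5, a large neutral amino acid carrier gene, and Esrra, encoding an oestrogen-related receptor that drives mitochondrial genes, rose (0.39, SE 0.039, and 0.45, SE 0.061).

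**Figure D5:**
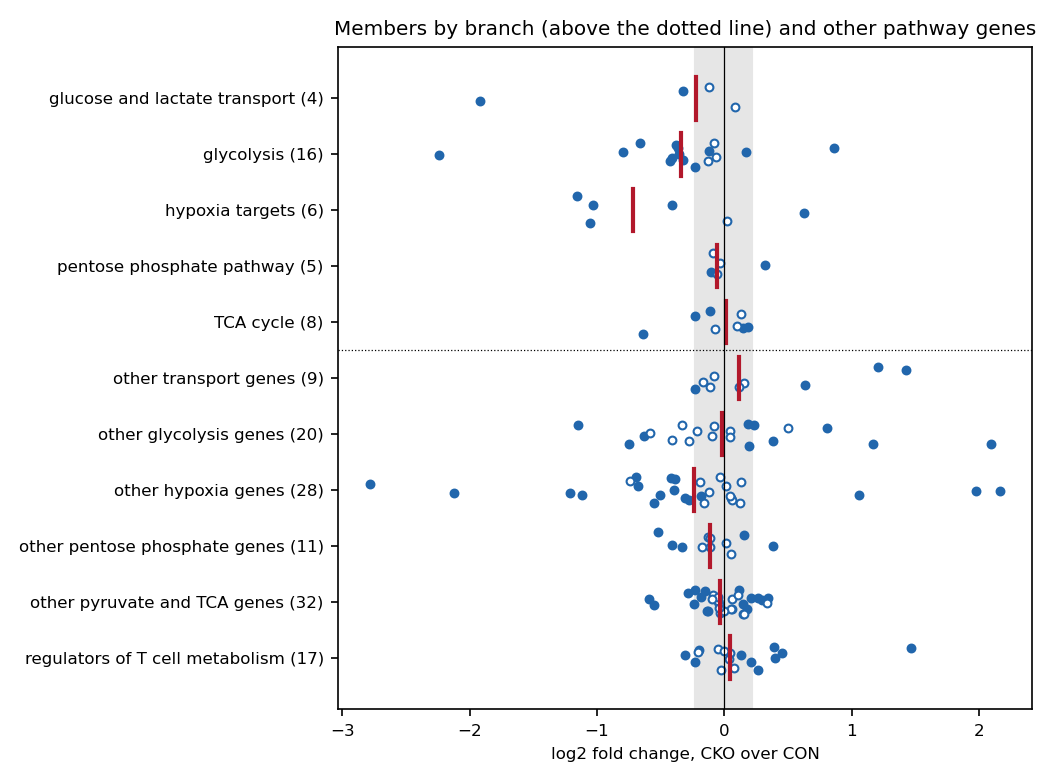
Log2 fold change (CKO over CON, horizontal axis) of tested genes in the 5 branches (above the dotted line) and in 6 lists of further genes, with the number tested in parentheses. Filled points were called, red bars are medians and the grey band holds the middle of all tested genes (-0.23 to 0.22, the 25th to the 75th percentile); the medians of glycolysis (-0.34), the hypoxia targets (-0.72) and the further hypoxia genes (-0.24) lie left of the band.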

How the data were processed

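Bulk RNA-seq libraries of 6 samples (3 CKO, 3 CON, grouped by their titles and genotypes) were analysed from the read counts per gene that the authors deposited, 1 table a library. Per the submitters' processing notes, reads were processed with STAR 2.7.3a and HTSeq 0.12.4 on mm10; for the annotation release and the strand setting, the choice is not given in the sources used. Each table ends in 5 summary lines, which were left out of library sizes; reads on no feature made up 7.45 ± 0.149% of a table in CKO and 9.34 ± 0.158% in CON libraries (SD, n = 3 each), and reads aligned to several places 3.03% in CKO and 3.05% in CON libraries.

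Reads were tested with edgeR 4.0.16 in R 4.3.3 (filterByExpr, minimum count 10; TMM scaling; quasi-likelihood test, group only), with Benjamini-Hochberg adjustment over all 13364 genes and a threshold of 0.05. CPM values are TMM-scaled. TPM used exon lengths of GENCODE M21 (55141 of 55401 IDs matched), without TMM scaling. Isozyme ratios were compared by exact permutation tests over the 6 libraries. Alternatives were DESeq2 1.42.0, other scalings and filters, a replicate block, a test against a fold of 1.2, removal of 758 red cell, immunoglobulin, T cell receptor and mitochondrial genes, and leaving out each library. The fit was tested on simulated counts: with dispersions taken from the trend over genes, the share of false calls was near the nominal rate, but with each gene's own estimated dispersion it was above that rate in every run, so adjusted p-values close to the threshold are less certain than they read.

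The members and lists were chosen with earlier results of these data known. The rule for named genes took Satb1, the members, and in each list of further genes up to 4 called genes of smallest p, of which 1 member and 1 further gene are counted but not reported here; of each marker list the rule took the 2 genes with most reads (Cd5 and Cd28, Hbb-bs and Hba-a1, Lyz2 and Mpeg1, Ighm and Igkc, Eomes and Prf1, Cd74 and H2-Ab1, Cd8a and Cd8b1), given here within the list sums. B cell markers summed to 257 to 336 CPM in CKO and 229 to 294 CPM in CON libraries, NK cell markers to 22.2 to 28.5 CPM in CKO and 7.24 to 10.9 CPM in CON libraries, dendritic cell markers to 91.6 to 153 CPM in CKO and 69.4 to 77.9 CPM in CON libraries, and CD8 T cell markers to 22.5 to 29.6 CPM in CKO and 17.6 to 21.4 CPM in CON libraries. Reads of Pkm do not separate its splice forms, genes with many processed pseudogenes (Gapdh, Pgk1, Ldha) lose reads that map to several places, and 767 bases of Pkm exon overlap Gm49759. Exons of other members overlap other genes too, at 22.3% of exon bases in Bnip3 (Gm45507), 20.6% in Pgls (Fam129c) and 16.1% in Pdha1 (Map3k15).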

Additional observations from a re-analysis of the deposited data

How the results depend on the processing

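Of the 27 calls, 22 (4 higher, 18 lower) held in all 6 fits that left out 1 library, with 4 to 7 members higher and 18 to 25 lower (glycolysis higher 1 to 2, hypoxia genes higher 0 to 1, pentose phosphate genes lower 0 to 1). Over all genes these fits called 2396 to 2898 higher and 2275 to 2937 lower. Against a fold of 1.2, 1222 genes were higher and 1121 lower. Of the members, 1 was then higher (Ldhb) and 15 lower, with 1 higher in glycolysis, 1 lower in transport, 0 higher among hypoxia genes, 0 higher and 0 lower in the pentose phosphate pathway, and 0 higher and 1 lower in the TCA cycle. The further pathway genes then had 10 higher and 14 lower. DESeq2 called 0 hypoxia genes higher. The other settings with all libraries gave 5 to 7 members higher and 20 to 22 lower.

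Signs changed for 2 genes that were not called. The log2 fold change of Hif1a ranged between -0.076 (without CKO replicate 2) and 0.12 (without CKO replicate 1) and was -0.054 without CON replicate 1, and that of Taldo1 between -0.091 (without CON replicate 1) and 0.0060 (without CKO replicate 1). The cause was not tested.

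With the replicate number as a block, 2861 genes were higher and 2702 lower, and 7 members were higher and 22 lower, with Ogdh (higher, edgeR adjusted p = 0.0477) and Gapdh (lower, 0.0407) added. Same-numbered libraries deviated from their group means with correlations of 0.021, -0.013 and 0.028, and differently numbered ones with -0.070 to 0.046. Whether same-numbered libraries were handled together was not tested. Depth limits Aldoc, with 7 to 20 reads in CKO libraries and 57 to 65 in CON libraries.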
